A study of Mus musculus with 10 samples.

Results

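A set of 10 genes that are used to recognise blood stem cells was followed here through 10 bone marrow libraries from mice. They were the transcription factor genes Hlf, Mecom, Prdm16 and Foxo3, the cell surface genes Procr, Tek, Cd34 and Esam, and Cavin2 and Fgd5, whose products act inside the cell. They were chosen by name, as genes of haematopoietic stem cell identity, from the 51456 gene identifiers of the deposited table, and all 10 were found in it. The choice was made with earlier results of these data known. The value for each gene and library is an FPKM, a number of sequenced fragments per kilobase of gene scaled to the size of the library.

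The libraries formed 2 groups of 5. Those labelled HSC, for haematopoietic stem cell, came from wild-type C57BL/6J mice, and their marrow was gated as CD48-, CD150+ LSK cells, that is lineage-negative cells positive for Sca-1 and c-Kit. Those labelled LSC, for leukaemia stem cell, came from leukaemic mice, in which the fusion gene MLL-AF9 drove acute myeloid leukaemia, and were gated as lineage-negative, Sca-1-negative cells positive for c-Kit, CD16/32 and CD34. The labels give the genotype as wild type in both groups, and neither the age of the mice nor the way MLL-AF9 was delivered is given in the sources used here. Disease and sorting gate changed together between the groups, so their shares in any difference cannot be told apart. Whether each library is a mouse of its own is not stated, and the p-values therefore reflect the spread between libraries, which may be technical.

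The expression of several known markers ran against the labels. That of Cd34, which the LSC gate required, went with them, at means of 27.7 FPKM under the HSC label and 91.3 FPKM under the LSC label. Ly6a, which encodes the Sca-1 protein that the HSC gate required and the LSC gate excluded, averaged 0.92 ± 0.917 FPKM under the HSC label and 74.2 ± 24.8 FPKM under the LSC label (SD, n = 5 each), the former being 0.519 FPKM without replicate 3. Slamf1, which encodes CD150, stood at 0.494 ± 0.27 and 2.85 ± 0.319 FPKM (SD, n = 5 each). Of 10 target genes of MLL fusion proteins, 0 were higher and 9 were lower in the LSC-labelled libraries by limma's moderated test at an adjusted p of 0.05, Hoxa9 among them with 57.0 ± 7.58 against 7.06 ± 0.945 FPKM (SD, n = 5 each). All 10 libraries are involved, so no result could be given without them, and the groups are called HSC-labelled and LSC-labelled throughout. The estimated depth was 13270000 to 27700000 fragments per HSC-labelled library and 16790000 to 35270000 per LSC-labelled one.

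Haematopoietic stem cells are rare marrow cells that divide seldom and renew the blood for life. Their identity is held by a set of transcription factors that stay low or silent in most progenitors, and they carry receptors and adhesion molecules that they share with the endothelium, since both arise from a common embryonic lineage. Cells of the granulocyte-monocyte progenitor stage, which MLL-AF9 leukaemia cells resemble, have lost much of this set.

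The 10 genes spanned a wide range of levels, and most stood higher in the LSC-labelled libraries. With means over 5 libraries, Cd34 was the most abundant in both groups, at 27.7 FPKM under the HSC label and 91.3 FPKM under the LSC label. In the HSC-labelled libraries Foxo3, Prdm16, Cavin2 and Esam followed with means of 3.46, 3.23, 2.06 and 1.4 FPKM, and neighbours in this order did not differ beyond their spread. Mecom, Hlf, Tek, Fgd5 and Procr came last there, with means of 0.926, 0.395, 0.367, 0.253 and 0.186 FPKM. In the LSC-labelled libraries the order after Cd34 was Cavin2, Esam and Foxo3, at means of 21, 13.8 and 7.02 FPKM. Hlf and Tek, at 2.49 and 2.43 FPKM, could not be separated given their spread, and neither could Prdm16 and Mecom, at 1.18 and 1.04 FPKM. Procr, at 1.91 FPKM, overlapped Hlf and Tek within its spread, and Fgd5 came last at 0.388 FPKM. Hlf, Procr, Tek and Fgd5 were below 1 FPKM in every HSC-labelled library.

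**Figure D1:**
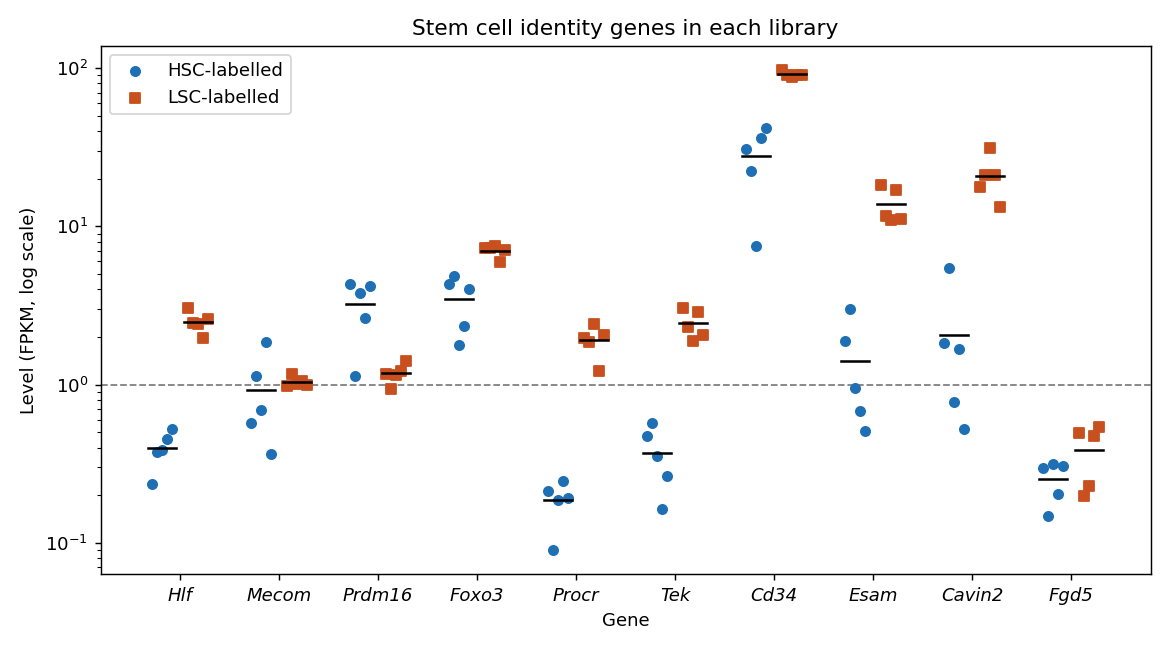
FPKM of each of the 10 stem cell identity genes on a log axis, with 1 point per library (circles HSC-labelled, squares LSC-labelled), a bar at the mean of each group of 5 and a dashed line at 1 FPKM. The LSC-labelled points lie above all HSC-labelled points for 7 genes, the groups overlap for Mecom and Fgd5, and for Prdm16 they overlap through HSC-labelled replicate 2.

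Differences between the groups were tested with limma on log2(FPKM + 1) for the 13431 genes that reached 1 FPKM in at least 5 libraries, and a fold change on this scale understates the change of low genes. The question was which of the stem cell genes differed between cells labelled as normal and as leukaemic stem cells. Of the 10, 9 were tested, and Fgd5 was not, because it was below 1 FPKM in all 10 libraries. Of these, 7 were called higher in the LSC-labelled libraries, namely Hlf, Foxo3, Procr, Tek, Cd34, Esam and Cavin2, where 27.2% of all tested genes were called higher. Prdm16 alone was called lower, where 13.8% of all tested genes were. Mecom was not called. The shares of 27.2% and 13.8% are the background for the counts of every gene list described here. The same 7 genes had no overlap between the groups with the LSC-labelled libraries above, as did 20% of tested genes, and none had no overlap in the other direction, where 9.8% of tested genes did. Hlf, Procr and Tek passed the filter only through the LSC-labelled libraries and so had to differ. With a pseudocount of 0.01 in place of 1 the log2 fold changes of Hlf, Procr and Tek, given below with 1, were 2.65, 3.33 and 2.8. In the fit without a filter, over all 51456 identifiers, the counts were also 7 higher and 1 lower, against 6.43% and 3.54% of all identifiers. Only 12895 to 14172 identifiers reached 1 FPKM in a library, so these shares are lowered by near-silent ones. That fit used the same values and is not separate support. The median tested gene differed by 0.11 on the log2 scale, and changes are to be read relative to it. In sorted bulk RNA, a higher share of cells that express a gene and more RNA of it per cell cannot be told apart.

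**Figure D2:**
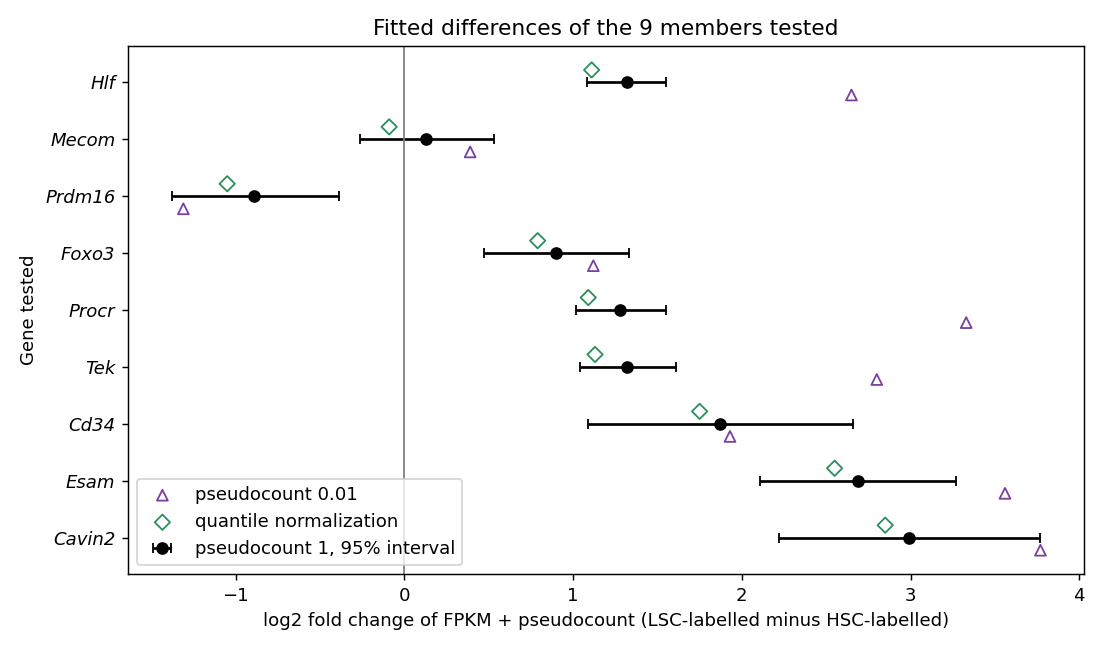
Log2 fold change of the 9 tested genes, LSC-labelled minus HSC-labelled, as filled points with limma's 95% confidence interval on log2(FPKM + 1), with triangles for a pseudocount of 0.01 and diamonds for quantile normalization. Intervals of 7 genes lie above 0, that of Prdm16 lies below 0 and that of Mecom runs from -0.26 to 0.53, and the triangles of Hlf, Procr and Tek lie farthest above their intervals.

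Regions of 250 bases directly before the annotated start of transcription are shown for 4 of the genes, because these windows hold almost no annotated exon sequence. They include the genes of the largest log2 fold change, of the highest level, of the TIE2 receptor and of the single fall. The regions are given from RefSeq on build GRCm38.p6, 5′ to 3′ on the strand of the gene, with matches to the motifs below in capitals. The table held an entry for 9 of the 10 genes, all but Esam.
Cavin2, chr1:51288876-51289125 plus strand: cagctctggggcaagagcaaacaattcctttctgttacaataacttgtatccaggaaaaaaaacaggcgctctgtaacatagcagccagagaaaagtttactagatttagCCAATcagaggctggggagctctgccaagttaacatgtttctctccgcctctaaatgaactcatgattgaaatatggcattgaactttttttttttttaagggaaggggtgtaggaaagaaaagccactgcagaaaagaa
Cd34, chr1:194938571-194938820 plus strand: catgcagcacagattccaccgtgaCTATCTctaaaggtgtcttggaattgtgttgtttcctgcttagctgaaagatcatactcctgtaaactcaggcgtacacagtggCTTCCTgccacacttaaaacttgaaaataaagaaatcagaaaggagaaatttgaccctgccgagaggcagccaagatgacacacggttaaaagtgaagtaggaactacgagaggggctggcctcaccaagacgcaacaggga
Tek, chr4:94739039-94739288 plus strand: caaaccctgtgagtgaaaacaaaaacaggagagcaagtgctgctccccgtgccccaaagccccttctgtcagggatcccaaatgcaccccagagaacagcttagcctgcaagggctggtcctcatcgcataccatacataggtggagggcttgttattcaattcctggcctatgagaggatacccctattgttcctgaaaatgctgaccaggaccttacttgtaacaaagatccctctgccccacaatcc
Prdm16, chr4:154636874-154637123 minus strand: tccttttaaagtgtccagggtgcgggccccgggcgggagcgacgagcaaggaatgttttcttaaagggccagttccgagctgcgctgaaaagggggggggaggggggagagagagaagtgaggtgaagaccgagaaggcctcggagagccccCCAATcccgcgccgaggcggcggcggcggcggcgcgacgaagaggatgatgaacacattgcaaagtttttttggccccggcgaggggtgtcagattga
The GC content of these windows was 40.4% for Cavin2, 46.4% for Cd34, 51.2% for Tek and 62.4% for Prdm16, against a median of 52.4% over 32851 windows. A set of 7 motifs was searched on both strands. The Cd34 window held 1 match to a GATA motif (the letters AGATAA, the variant AGATAG, the variant TGATAA, or the variant TGATAG), which 26.5% of all windows hold, and 1 match to the ETS motif AGGAAG or its variant CGGAAG, which 39.2% hold. The Cavin2 and Prdm16 windows each held 1 CCAAT box, which 33.8% of all windows hold, and the Tek window held no match. Over the 10 windows of the 9 genes, Mecom having a pair, 3 held a GATA motif, 4 an ETS motif, 2 an E-box spelled CAGATG or else CAGCTG (25.5% of all windows) and 3 a CCAAT box. None held the RUNX motif TGTGGT, the FOXO motif GTAAACA or the PAR bZIP motif TTACGTAA, which 14%, 3.17% and 0.113% of all windows hold. A match is a description of these letters and says nothing of binding.

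Hlf encodes a PAR bZIP transcription factor that marks stem cells and restrains their cycling, and the gene lies on the minus strand at chr11:90336536-90390895 (GRCm38). Its levels in HSC-labelled replicates 1 to 5 were 0.236, 0.377, 0.387, 0.45 and 0.525 FPKM. LSC-labelled replicates 1 to 5 gave 3.03, 2.46, 2.4, 1.96 and 2.58 FPKM. Every LSC-labelled library lay above every HSC-labelled one. The log2 fold change was 1.32 (SE 0.106, adjusted p = 5.089e-06, limma), the ratio of the means was 6.29, and the exact two-sided permutation test gave p = 0.00794, the smallest value that 5 against 5 libraries allow. The low values rest on few fragments, an estimated 34 to 70 per HSC-labelled library against 315 to 566.

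Of the other 3 genes of this group, 1 was called higher, 1 lower and 1 not at all. Dbp, a clock-controlled PAR bZIP gene, rose from 0.87 ± 0.57 to 2.2 ± 0.648 FPKM (SD, n = 5 each; log2 fold change 0.8), and its groups overlapped. Tef, at 1.87 ± 0.366 and 2.22 ± 0.216 FPKM (SD, n = 5 each), was not called. Nfil3, a repressor that binds the same DNA sites, fell from 17.5 ± 4.05 to 7.88 ± 0.912 FPKM (SD, n = 5 each), by 1.04 on the log2 scale with no overlap.

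Mecom and Prdm16 encode related PR-domain zinc finger proteins that are both required for the maintenance of stem cells. Mecom, also known through its product EVI1, lies at chr3:29951296-30548008 on the minus strand and has 17 annotated transcripts. Its levels were 0.573, 1.13, 0.695, 1.87 and 0.362 FPKM in HSC-labelled replicates 1 to 5. They were 0.983, 1.16, 1.01, 1.05 and 1 FPKM in LSC-labelled replicates 1 to 5. The LSC-labelled values lay within the range of the HSC-labelled ones, in which replicate 4 was the highest and replicate 5 the lowest. The log2 fold change was 0.13 with a 95% confidence interval of -0.26 to 0.53 (adjusted p = 0.5763, limma), so a rise or a fall within that interval remains possible. Under quantile normalization it was -0.09 and again not called.

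Prdm16 lies at chr4:154316125-154636873 on the minus strand and has 13 annotated transcripts. Its levels were 4.35, 1.14, 3.81, 2.62 and 4.21 FPKM in HSC-labelled replicates 1 to 5. Across LSC-labelled replicates 1 to 5 the levels were 1.17, 0.935, 1.15, 1.22 and 1.41 FPKM. Of the HSC-labelled libraries 4 lay above every LSC-labelled one, and HSC-labelled replicate 2 lay among the LSC-labelled values. The mean fell from 3.23 ± 1.35 to 1.18 ± 0.17 FPKM (SD, n = 5 each), which is 2.74 times less, and the log2 fold change was -0.89 (SE 0.226, adjusted p = 0.008858, limma), with p = 0.0397 in the exact two-sided permutation test. Prdm16 was thus the one member of the 10 called higher under the HSC label, and the values rest on an estimated 183 to 945 fragments per library.

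The level of Prdm16 relative to Mecom was compared between the groups. The ratio of Prdm16 to Mecom FPKM was 7.59, 1.01, 5.49, 1.4 and 11.6 in HSC-labelled replicates 1 to 5. It was 1.19, 0.804, 1.14, 1.17 and 1.41 in LSC-labelled replicates 1 to 5. Of the HSC-labelled libraries 3 stood above all LSC-labelled ones and the other two did not. The difference of log2(FPKM + 1), whose pseudocount narrows these ratios, averaged 1.11 ± 0.88 under the HSC label and 0.09 ± 0.16 under the LSC label (SD, n = 5 each). The groups differed by -1.02, with p = 0.0635 in the exact two-sided permutation test, which did not pass 0.05. With pseudocounts of 0.1 and 0.01 the difference was -1.59 and -1.7, with p = 0.0635 and 0.0714 in the exact test. Without HSC-labelled replicate 2 the difference was -1.3 with p = 0.0159 in the exact test, so that library decides the call.

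**Figure D3:**
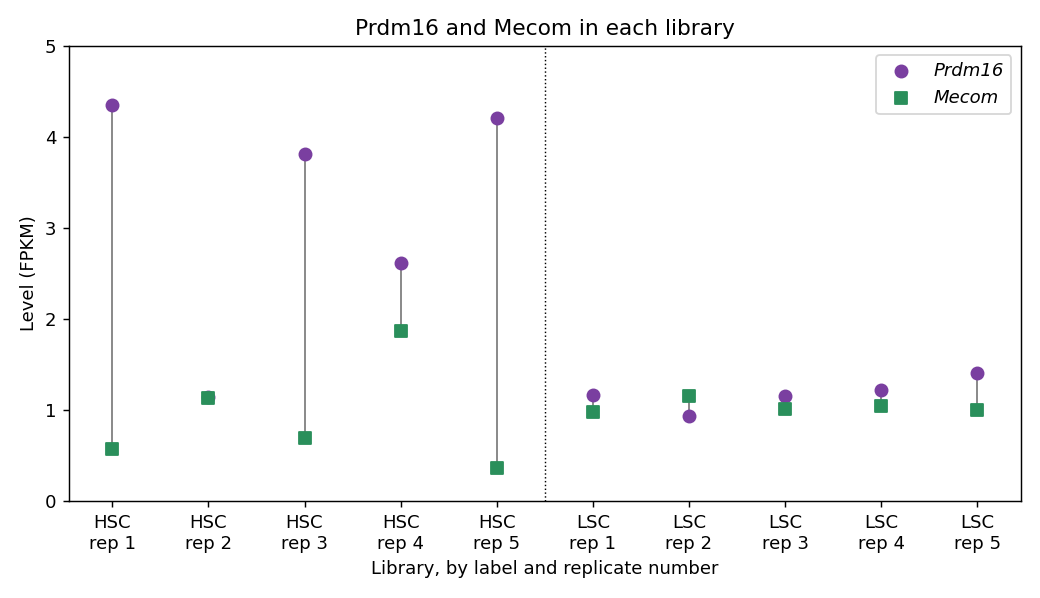
Levels in FPKM of Prdm16 (circles) and Mecom (squares) in each of the 10 libraries, joined by a line within a library. Prdm16 stands apart from Mecom in HSC-labelled replicates 1, 3 and 5, at ratios of 7.59, 5.49 and 11.6, and both lie near 1 FPKM in HSC-labelled replicate 2 and in the 5 LSC-labelled libraries.

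The other PR-domain genes and the CtBP corepressors that bind Mecom and Prdm16 were 14 in all, of which 8 were tested. Of these, 3 were called higher and 2 lower, where 27.2% and 13.8% of all tested genes were. The median log2 fold change was 0.17 against 0.11 over all tested genes. Of the 14, 1 passed the filter only through the LSC-labelled libraries and so had to differ. Prdm9, a meiotic histone methyltransferase, fell from 2.89 to 0.926 FPKM (log2 fold change -1.01). Ctbp1 stood at 19 and 26 FPKM (log2 fold change 0.45), with overlapping groups.

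Foxo3 encodes a forkhead factor that AKT holds out of the nucleus, and in stem cells it sustains quiescence and protection from oxidative stress. It lies at chr10:42181841-42276755 on the minus strand. Its levels were 4.32, 4.84, 1.77, 2.35 and 4.01 FPKM in HSC-labelled replicates 1 to 5. The levels in LSC-labelled replicates 1 to 5 were 7.27, 7.31, 7.49, 5.97 and 7.07 FPKM. The groups did not overlap, and HSC-labelled replicates 3 and 4 were the lowest. The log2 fold change was 0.9 (SE 0.195, adjusted p = 0.00345, limma), the exact permutation p was 0.00794, and without those 2 libraries the change was 0.57 (adjusted p = 0.00269, limma).

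Foxo1 and Foxo4 were below 1 FPKM in all libraries, with means of 0.38 and 0.446 FPKM for Foxo1 and 0.358 and 0.505 FPKM for Foxo4. Of 14 FOXO factors and regulators, 11 were tested, 2 were called higher and 1 lower, with a median log2 fold change of 0.02. Of all tested genes 27.2% were called higher and 13.8% lower. The kinase gene Akt2 rose from 10.8 to 18.2 FPKM (log2 fold change 0.7). Stk4, a kinase that phosphorylates FOXO proteins, fell from 36.5 to 25 FPKM (log2 fold change -0.52). Of 19 genes known as FOXO targets, 17 were tested, 4 were called higher and 2 lower, with a median log2 fold change of 0.04. These counts lie near the same shares, so the list as a whole did not stand out. Cdkn1a, a cell-cycle inhibitor, fell from 27.8 to 15.3 FPKM (log2 fold change -0.79). Sesn1, a stress-response gene, rose from 8.35 to 13.7 FPKM, and Pik3ip1, an inhibitor of PI3-kinase, rose from 21 to 33.1 FPKM (log2 fold change 0.68 each).

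Procr encodes EPCR, the endothelial receptor for protein C, which is also a marker of the most potent stem cells. The gene lies at chr2:155751117-155755471 on the plus strand. Its levels were 0.213, 0.0898, 0.187, 0.246 and 0.192 FPKM in HSC-labelled replicates 1 to 5. In LSC-labelled replicates 1 to 5 they were 1.98, 1.87, 2.43, 1.22 and 2.07 FPKM. The groups did not overlap. The ratio of the means was 10.3 and the log2 fold change 1.28 (SE 0.121, adjusted p = 1.524e-05, limma; exact permutation p = 0.00794). An estimated 5 to 10 fragments per HSC-labelled library lie behind the low values.

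Of 12 genes of the EPCR and protein C pathway, 7 were tested, with a median log2 fold change of 0.97. Of these, 4 were called higher and 3 lower, where 27.2% and 13.8% of all tested genes were. F2r, the thrombin receptor that activated protein C also cleaves, rose from 5.04 to 25 FPKM (log2 fold change 2.67), though HSC-labelled replicate 2 reached 17.3 FPKM and the HSC-labelled mean was 1.97 FPKM without it. F2rl2, a related receptor, rose from 2.02 to 17.1 FPKM (log2 fold change 2.69). The coagulation factor genes F10 and F7 fell, F10 from 126 to 15.6 FPKM (log2 fold change -2.92). F7 went from 123 ± 127 to 0.645 ± 0.208 FPKM (SD, n = 5 each), a log2 fold change of -5.36. The coagulation genes F2 and F3 were below the filter, at means of 0.556 and 0.517 FPKM for F2 and 0.708 and 0.433 FPKM for F3. Thbd, which encodes thrombomodulin, the cofactor for the activation of protein C, fell from 12.3 to 7.44 FPKM with overlapping groups (log2 fold change -0.65).

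Tek encodes TIE2, the receptor for angiopoietins, through which niche signals act on stem cells. It lies at chr4:94739289-94874976 on the plus strand, and its promoter window is shown above. Its levels were 0.475, 0.574, 0.356, 0.164 and 0.266 FPKM in HSC-labelled replicates 1 to 5. Across LSC-labelled replicates 1 to 5 the levels were 3.06, 2.3, 1.88, 2.86 and 2.07 FPKM. The groups did not overlap, and LSC-labelled replicates 1 and 4 were the highest. The ratio of the means was 6.63 and the log2 fold change 1.32 (SE 0.129, adjusted p = 1.944e-05, limma; exact permutation p = 0.00794).

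Of 11 genes of the TIE2 pathway, 9 were tested, with a median log2 fold change of 0.15. Of these, 3 were called higher and 2 lower, where 27.2% and 13.8% of all tested genes were. Angpt1, which encodes the activating ligand, rose from 3.82 ± 1.68 to 14.8 ± 1.29 FPKM (SD, n = 5 each; log2 fold change 1.81, adjusted p = 2.02e-04, limma). Tie1, the orphan partner of TIE2, rose from 0.922 to 5.29 FPKM (log2 fold change 1.76). Grb14, an adaptor of receptor kinases, fell from 17.4 ± 20.8 to 1.09 ± 0.4 FPKM (SD, n = 5 each), but the HSC-labelled values ran from 1.2 to 48.5 FPKM and overlapped the others, and their mean without replicate 3 was 9.63 FPKM.

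Cd34 encodes a sialomucin of stem and progenitor cells and endothelium, and in adult mice the most potent stem cells carry little of it. It was also a marker of the LSC gate, so its level is not independent of the sort, and it differed in the direction of the labels. Fcgr3, which encodes a CD16 receptor that the same gate required, was at 371 ± 117 FPKM under the HSC label and 197 ± 20.7 FPKM under the LSC label (SD, n = 5 each; log2 fold change -0.86), called lower with no overlap. Cd34 itself lies at chr1:194938819-194961279 on the plus strand. Its levels were 31.0, 22.4, 7.51, 36 and 41.7 FPKM in HSC-labelled replicates 1 to 5. The levels in LSC-labelled replicates 1 to 5 were 97.4, 90.9, 88.0, 90.0 and 90.2 FPKM. The groups did not overlap, and HSC-labelled replicate 3, the shallowest library, was the lowest, though on an estimated 727 fragments. The log2 fold change was 1.87 (SE 0.358, adjusted p = 0.001662, limma), with an exact permutation p = 0.00794. Without that library the log2 fold change was 1.48 (adjusted p = 5.34e-05, limma). Of 4 family members and partners 2 were tested, of which 1 was called higher and 1 lower. Crkl, an adaptor, rose from 12.5 to 14.7 FPKM with overlapping groups (log2 fold change 0.22), and Podxl, a paralog of Cd34, was below the filter at means of 0.847 and 0.692 FPKM, with 3.25 FPKM in HSC-labelled replicate 2 and a mean of 0.246 FPKM without it.

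Esam encodes an adhesion protein of endothelial junctions that also marks stem cells. It lies at chr9:37528078-37538319 on the plus strand. Its levels were 1.88, 3, 0.949, 0.681 and 0.511 FPKM in HSC-labelled replicates 1 to 5. LSC-labelled replicates 1 to 5 gave 18.3, 11.7, 11, 17.1 and 11.1 FPKM. The groups did not overlap, and LSC-labelled replicates 1 and 4 were again the highest. The ratio of the means was 9.85 and the log2 fold change 2.69 (SE 0.264, adjusted p = 2.084e-05, limma; exact permutation p = 0.00794). Of 6 junctional adhesion genes 1 was tested, F11r, encoding junctional adhesion molecule A, which rose from 0.817 to 6.17 FPKM (log2 fold change 2).

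Cavin2 encodes a coat protein of caveolae, the plasma membrane pits, and is abundant in megakaryocytes and endothelium. The gene lies at chr1:51289126-51302960 on the plus strand, with its promoter window shown above. Its levels were 1.84, 5.46, 0.777, 1.68 and 0.523 FPKM in HSC-labelled replicates 1 to 5. In LSC-labelled replicates 1 to 5 they were 17.8, 21.2, 31.5, 21 and 13.3 FPKM. The groups did not overlap, HSC-labelled replicate 2 was the highest of its group, and LSC-labelled replicate 3 was the highest of all. The ratio of the means was 10.2 and the log2 fold change 2.99 (SE 0.354, adjusted p = 7.013e-05, limma; exact permutation p = 0.00794). Without HSC-labelled replicate 2 the ratio was 17.4 and the log2 fold change 3.31. Of 8 caveolae genes 4 were tested, of which 2 were called higher and 0 lower. Of the 8, Cavin3 passed the filter only through the LSC-labelled libraries and so had to differ. Cavin1, the core coat gene, rose from 1.29 ± 1.29 to 14.6 ± 3.79 FPKM (SD, n = 5 each; log2 fold change 2.88; HSC-labelled mean 0.732 FPKM without replicate 2), and Cavin3 from 0.449 to 2.25 FPKM (log2 fold change 1.16). Cav1, which encodes the caveolin that the coat binds, was below 1 FPKM in every library at means of 0.264 and 0.219 FPKM.

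Fgd5 encodes an exchange factor for the GTPase CDC42 and is used as a reporter locus for stem cells. It lies at chr6:91978878-92076004 on the plus strand. Its levels were 0.296, 0.148, 0.315, 0.204 and 0.304 FPKM in HSC-labelled replicates 1 to 5. The levels in LSC-labelled replicates 1 to 5 were 0.498, 0.198, 0.23, 0.474 and 0.538 FPKM. The groups overlapped and every library was below 1 FPKM, on an estimated 23 to 74 fragments. The difference on the log2 scale was 0.14 with p = 0.151 in the exact two-sided permutation test. A difference of that size was not told apart from none with 5 libraries per group and this spread between them. Of 6 FGD family genes and Cdc42, 4 were tested, 0 were called higher and 3 lower. Fgd4 fell from 12.9 to 3.93 FPKM (log2 fold change -1.46), Fgd3 from 4.64 to 3.24 FPKM (log2 fold change -0.4) and Cdc42 from 401 to 302 FPKM (log2 fold change -0.4).

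A wider list of 30 further stem cell genes was followed beside the 10. Of the 23 tested, 17 were called higher and 2 lower, where 27.2% and 13.8% of all tested genes were. Of the 30, 2 passed the filter only through the LSC-labelled libraries and so had to differ. The median log2 fold change was 1.51 against 0.11 over all tested genes. The largest rises after Ly6a (log2 fold change 5.33) were those of Ifitm1, from 8.31 to 156 FPKM (log2 fold change 4.23), and Pdzk1ip1, from 1.91 to 14.7 FPKM (log2 fold change 2.7). Without HSC-labelled replicate 2 the lower mean of Pdzk1ip1 was 0.875 FPKM.

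**Figure D4:**
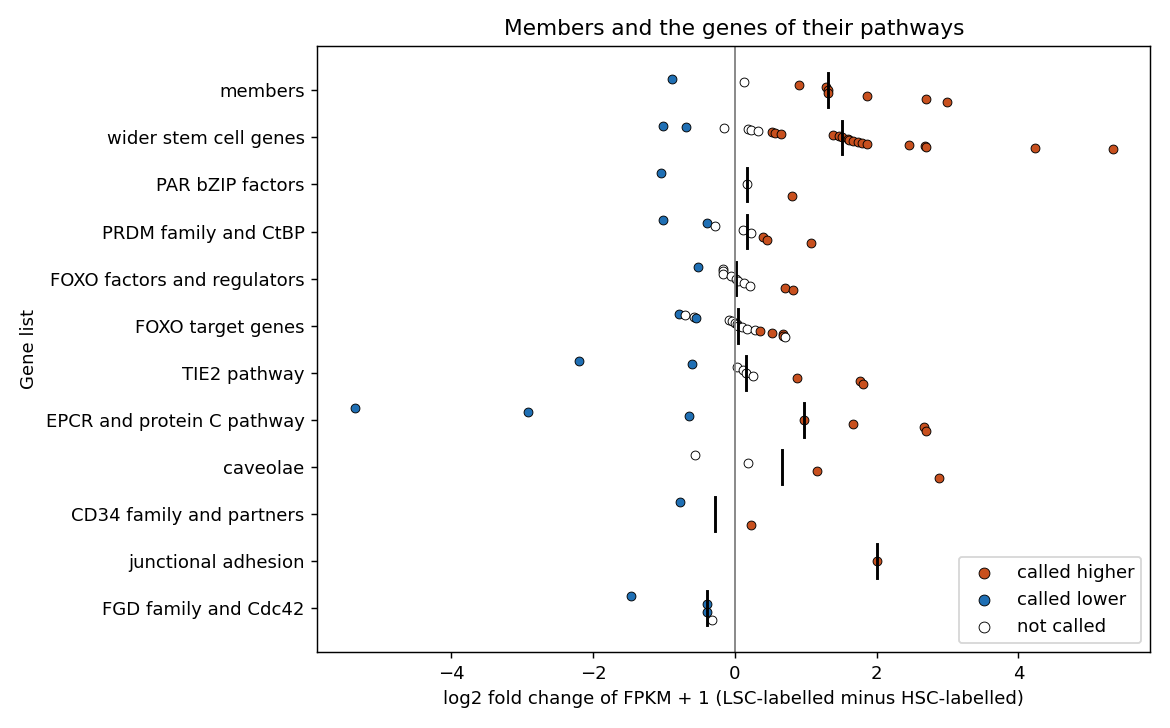
Log2 fold changes on the log2(FPKM + 1) scale, LSC-labelled minus HSC-labelled, of the tested genes among the 10 and in each related list, with 1 point per gene coloured by its limma call and a bar at the list median. Medians run from -0.4 for the FGD family and Cdc42 to 2 for the single tested junctional gene.

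Markers of several other cell types differed between the groups as well, and the part of those cells in these results was not tested. Endothelium expresses Tek, Esam, Procr, Cd34 and Cavin2. Of 14 endothelial markers, 11 were tested and 9 were called higher in the LSC-labelled libraries, where 27.2% of all tested genes were. Of the 14, 6 were below 1 FPKM in every HSC-labelled library and at least 1 FPKM in every LSC-labelled one. These 6 passed the filter only through the LSC-labelled libraries and so had to differ. The summed level of the 14 markers was 45.5 to 60.1 FPKM per HSC-labelled and 104 to 164 FPKM per LSC-labelled library. The most abundant were Pecam1, at 38.7 and 27.9 FPKM and not called, Eng, at 5.13 and 41.4 FPKM, and Egfl7, at 5.06 and 24.8 FPKM. Without HSC-labelled replicate 2 the HSC-labelled means of Eng and Egfl7 were 2.77 and 3.1 FPKM. Cdh5, the defining junction cadherin of endothelium, was at 0.0818 and 0.695 FPKM. Of 13 megakaryocyte and platelet markers, which go with Cavin2, 12 were tested and 12 were called higher, with summed levels of 23.6 to 284 FPKM and 850 to 1430 FPKM, and Pf4 was at 68.1 and 678 FPKM, the lower mean being 33.7 FPKM without HSC-labelled replicate 2. The summed level of 12 erythroid markers was 123 to 1730 FPKM and 1450 to 3010 FPKM, with 9 called higher and 0 lower, and Car1 led them at 223 and 899 FPKM. HSC-labelled replicate 2 held 1050.0 FPKM of Car1, above some LSC-labelled libraries, and without it the HSC-labelled mean was 16.8 FPKM. Of 8 basophil and mast cell markers 6 were called higher, with sums of 22.7 to 126 FPKM and 771 to 1750 FPKM, led by Prss34 at 10.8 and 710.0 FPKM. Of 10 bone and stroma markers 9 were tested and 9 were called higher. Their sums were 4.82 to 9.58 FPKM and 265 to 1040 FPKM, led by Bglap at 0.237 and 128 FPKM. Of these 10 markers, 6 passed the filter only through the LSC-labelled libraries and so had to differ. The same held for 2 megakaryocyte and platelet markers, 1 erythroid marker and 1 basophil and mast cell marker. Granulocyte-monocyte progenitor and myeloid markers were abundant in both groups, at sums of 16500 to 32200 FPKM and 15800 to 22800 FPKM, with 1 of 14 called higher and 5 lower, and Elane was at 9710 and 6530 FPKM and not called.

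Single libraries stood out in several of the 10 genes together. HSC-labelled replicate 2 was the highest of its group in Esam, Tek, Cavin2 and Foxo3 and the lowest in Prdm16, Procr and Fgd5. It also had the highest megakaryocyte sum of its group, 284 FPKM, and the highest erythroid sum, 1730 FPKM, which is within the LSC-labelled range. LSC-labelled replicates 1 and 4, the highest in Esam and Tek, were the highest of their group in 9 of the 14 endothelial markers, among them Kdr (3.13 FPKM in both) and Stab2 (5.18 and 3.38 FPKM), which were chosen after their values were seen. They were not both the highest in the other 5, and replicate 4 was the lowest of its group in Eng (32.4 FPKM) and Egfl7 (19.3 FPKM). The endothelial sum was 164 FPKM in LSC-labelled replicate 1, the highest, and 111 FPKM in replicate 4, the lowest but one. LSC-labelled replicate 3, the highest in Cavin2, had the highest megakaryocyte sum of all, 1430 FPKM, and the most Ppbp, a platelet chemokine gene, at 358 FPKM.

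**Figure D5:**
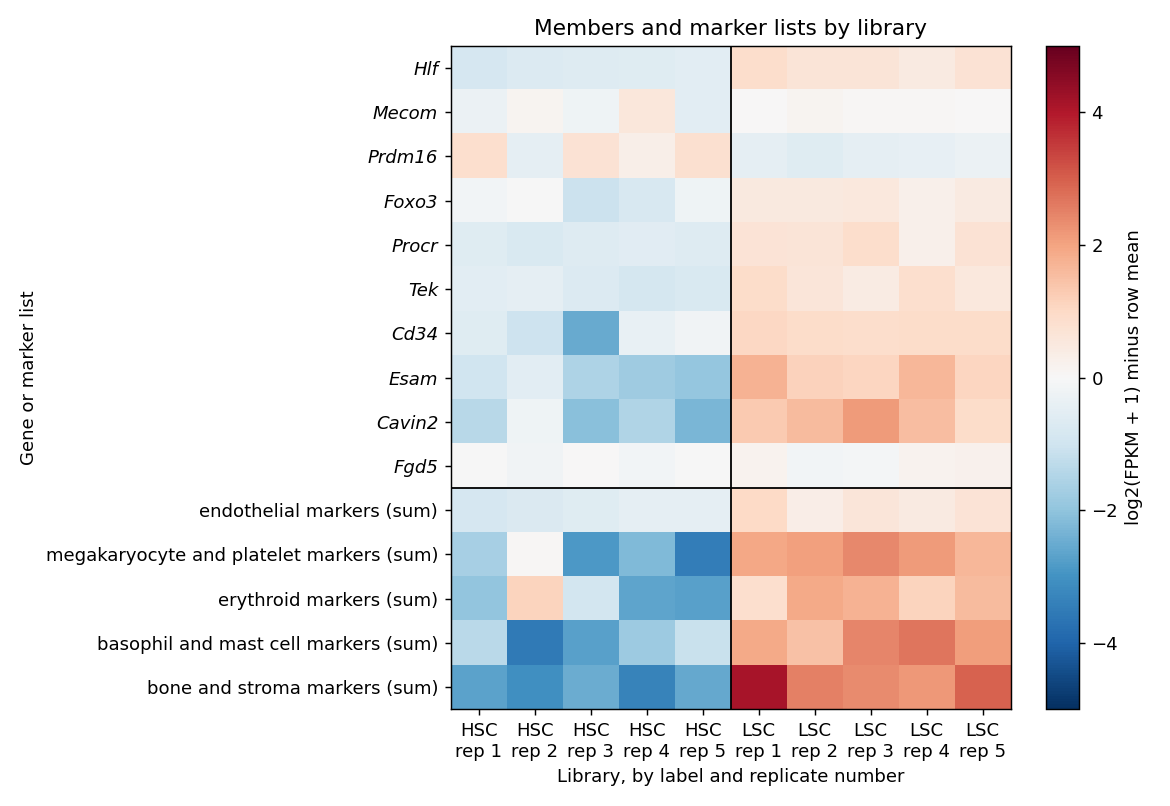
Heat map of the 10 genes and of the summed levels of 5 marker lists in the 10 libraries, as log2(FPKM + 1) minus the mean of the row, with blue below and red above that mean. The LSC-labelled columns are red for 7 genes and for the 5 marker sums, and HSC-labelled replicate 2 is red in the erythroid sum and near the row mean in Cavin2 and the megakaryocyte sum.

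The spread between libraries was set beside that of all tested genes. The median SD of the 10 genes on the log2 scale was 0.444 under the HSC label and 0.166 under the LSC label, against 0.232 and 0.155 over all tested genes. The SD was wider in the HSC-labelled group for 6 of the 10, as it was for 73.1% of tested genes.

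Genes with the profile nearest to each of the 9 tested members were sought among 10945 named genes, by the root mean square difference of centred log2(FPKM + 1) over the 10 libraries. For Hlf they were Fyn (0.103) and Cyp2j6 (0.128), and for Procr they were Hyal2 (0.134) and Hlf itself (0.142). Tek was nearest to C1ra (0.12) and Gpx8 (0.128), and Esam to Ackr1 (0.296) and F2rl2 (0.337). Cavin2 was nearest to its partner Cavin1 (0.2) and to Clu (0.24). Cd34 was nearest to Gpr171 (0.278), and Foxo3 to Add1 (0.12) and Tcf20 (0.128). Prdm16 was nearest to Nagk (0.168) and Cxcl16 (0.19), and Mecom, which varied little between the groups, to Rpl36a-ps2 (0.0943) and Rpl13 (0.139). Among the members themselves the nearest pair was Hlf and Procr (0.142), and Mecom and Prdm16 stood 0.76 apart. Hlf, Procr and Tek passed the filter only through the LSC-labelled libraries, and the pseudocount of 1 compresses their low values. Their closeness to each other and to other low genes on this scale therefore says little of a shared pattern. With a pseudocount of 0.01 the log2 fold changes of Hlf and Procr were 2.65 and 3.33.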

How the data were processed

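Per the labels' protocols, sorted marrow cells gave total RNA (miRNeasy), which went through Geo-seq amplification, made for small inputs, and TruePrep tagmentation. Build mm10 and the tools Bowtie 0.12.9, Cufflinks 2.1.1, HTSeq and DESeq2 are named, with no role or order, in the submitters' processing notes. The authors deposited FPKM, scaled by them to gene length and library size, in 1 table of 51456 Ensembl IDs by 10 libraries. Strandedness and annotation release are not given in the labels, so overlapping, antisense or near-identical genes may share reads. Symbols and coordinates came from GENCODE M21 (GRCm38), which matched 51246 IDs.

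Multiplied by exon length, 59.0% to 73.8% of low values in a library were within 0.05 of a whole fragment. This gave estimated depths, but whole reads were not recovered and no count test was run. The limma 3.58.1 test (R 4.3.3, mean trend, two-sided) was run on log2(FPKM + 1) for genes reaching 1 FPKM in 5 or more libraries, with Benjamini-Hochberg adjustment over 13431 genes and a threshold of 0.05. A positive fold change means higher in the LSC-labelled group. Single genes were also tested by exact permutation over 252 splits. Python 3.11.15, numpy 2.4.6, pandas 2.3.3, scipy 1.17.1 and matplotlib 3.10.9 were used. The fit was tested on simulated data. Other pseudocounts, normalizations, filters and left-out libraries were tried.

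The members, gene lists and tests were chosen with earlier results of these data known. Named were every member, up to 3 called genes of largest change in each pathway list with direct partners and paralogs, up to 3 most abundant genes of each list of other cells that is described by gene, the 2 nearest profiles of each tested member, and Ly6a, Slamf1 and Hoxa9 as checks of the labels. Some genes that this rule takes are not reported here.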

Additional observations from a re-analysis of the deposited data

Results flagged for a closer look

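Each of the 10 genes was examined in both groups, 20 groups of 5 libraries in all, for a library whose gap to its nearest neighbour exceeded 0.71 of the group's range. Such a gap is met by chance in about 5% of groups, and 2 were found. Cavin2 in HSC-labelled replicate 2 was at 5.46 FPKM, a gap of 0.733 of the range above the next library. Foxo3 in LSC-labelled replicate 4 was at 5.97 FPKM, a gap of 0.72 of the range below the next library, and still above all HSC-labelled values.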

How the results depend on the processing

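Under every alternative run, 7 of the 10 genes were called higher and 1 lower, and 171 of 172 values of single genes kept their direction and side of the threshold. The exception was Mecom, not called in either, at -0.09 (adjusted p = 0.705, limma) under quantile normalization. Among the 7, Hlf, Procr and Tek passed the filter only through the LSC-labelled libraries. Every limma run with the filter kept the same genes, so their calls in those runs add no support. The difference between Prdm16 and Mecom ranged from -1.3 to -0.81 when libraries were left out in turn and passed 0.05 only without HSC-labelled replicate 2. With a pseudocount of 0.01 the log2 fold changes of Hlf, Procr and Tek were 2.65, 3.33 and 2.8. Called genes were higher in 66.3% of cases as deposited, 50.8% under median-of-ratios scaling and 49.6% under quantile normalization, where 2833 were lower against 1859; the cause was not tested. The labels do not state whether equal replicate numbers pair the libraries. Correlations of the deviations of equally numbered libraries were 0.107, 0.12, -0.29, 0.225 and 0.0519, and 4 of 10 libraries correlated best with their own number. Values this weak neither establish nor exclude pairing. With the replicate block, the counts stayed at 7 and 1. Levels below 1 FPKM rest on few fragments, which limits Fgd5 and the HSC-labelled values of Hlf, Procr and Tek.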
